A study of Mus musculus with 6 samples.

Results

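Fatty acid oxidation and ketone body enzymes are described here in mouse primary cortical neurons after depletion of Opa1, which encodes the GTPase that merges inner membranes when mitochondria fuse and holds cristae in shape. The 33 genes were taken by symbol, as enzymes and subunits of fatty acid activation, the carnitine shuttle, mitochondrial beta-oxidation, the electron transfer flavoprotein and ketone body use. All 33 had a row among the 55471 rows of the deposited count table and all passed the low-count filter, which left 16562 genes to test. Neurons were prepared from the cortices of CD1 mouse embryos at embryonic day 15 or shortly before, are labelled wild type, and were held in culture for 11 days with 2 uM Ara-C (cytosine arabinoside), which kills dividing cells. On day 6 they received lentivirus that expresses a control short hairpin RNA (shControl, 3 libraries) or one directed against Opa1 (shOpa1, 3 libraries). Both groups share the virus, the drug and the culture medium, and the promoter that drives the hairpins is not given in the sources used here. The sequences of the hairpins were not used here.

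Beta-oxidation shortens fatty acids inside mitochondria. An acyl-CoA synthetase activates the fatty acid, the carnitine shuttle carries it across the inner membrane, and a spiral of dehydrogenation, hydration, a further dehydrogenation and thiolysis releases acetyl-CoA. Electrons of the first dehydrogenation pass through the electron transfer flavoprotein to ubiquinone. Neurons are known to burn little fatty acid and to use ketone bodies readily, while astrocytes oxidize more fatty acid.

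The comparison asked how transcripts of cultured cortical neurons change under the mitochondrial stress of Opa1 loss. Opa1 itself held 202, 204 and 202 CPM (counts scaled to library size with TMM factors) in shControl replicates 1 to 3 and 10.1, 8.64 and 8.49 CPM in the shOpa1 replicates. The groups stood far apart, and the transcript was 22.3-fold lower after the knockdown (log2 fold change -4.48 ± 0.0876 SE, edgeR quasi-likelihood adjusted p = 2.09e-06, n = 3 per group). Library totals ran from 24676709 to 32961580 counts. Replicate 3 differed from replicates 1 and 2 in both groups. Chi-square per degree of freedom was 25.8 and 30.8 in shControl and 29.8 and 30.2 in shOpa1. Between replicates 1 and 2 it was 10.6 and 6.11. Deviations of replicate 3 from the group means correlated at -0.452 to -0.438 with libraries of the other group that carry another number. Deviations within a group cancel out, so these negative values follow in part from the 0.649 between both libraries numbered 3. Calls without that pair are therefore given beside those of all 6 libraries. The neuronal identity of the cultures was checked with 11 neuronal markers, whose summed level was 9487 to 10120 CPM in shControl and 6710 to 7034 CPM in shOpa1. Of the 11, 7 fell and 1, Gad2, rose. With the replicate number as a block 10 fell and Gad2 rose. In such bulk libraries fewer neurons and less RNA of these genes per neuron cannot be told apart.

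Of the 33 genes, 15 changed (adjusted p below 0.05): 7 rose and 8 fell in shOpa1 neurons. The background in this comparison was wide: 38.9% of all tested genes were called, 18.9% higher and 20.0% lower, so 45.5% of the 33 is close to the share over all genes. Their median log2 fold change was 0.04 against -0.01 over all tested genes. The groups did not overlap for 17 of the 33 (51.5%), beside 51.8% of all tested genes. In all 3 same-numbered pairs 25 moved the same way, as did 80 of the 107 tested genes of the further pathway lists below. The share over all tested genes was not computed, so the 25 is not read as a trait of the set. Genes of the set thus changed in both directions, and their values are given by step. The genes that rose were Acsl4, Acadvl, Hadha, Eci1, Etfa, Acat1 and Bdh1, and those that fell were Acsl1, Cpt1a, Cpt2, Acads, Acadm, Acadl, Acad9 and Acaa2. With the replicate number as a block, which called 59.5% of all tested genes, 23 of the 33 were called, 11 higher and 12 lower. That fit kept all 15 calls and added Acsl3, Cpt1c, Echs1 and Hadhb as lower and Crat, Acad11, Hadh and Oxct1 as higher. With pairs 1 and 2 alone, which called 50.9% of all tested genes, 10 were higher and 12 lower. The 15 calls were kept there and Acsl3, Cpt1c, Echs1, Hadhb, Crat, Hadh and Oxct1 were added, while Acad11 was not (log2 fold change 0.22, edgeR adjusted p = 0.093). The same 15 genes were called by DESeq2 (34.2% of all genes it tested), by its size factors in edgeR and by limma-voom (39.0% each). Replicate 3 as a second batch called the same 23 as the block (56.5% of all genes), and 14 were called without the low-count filter (18.6%). Of the 15 calls, 7 were left without shControl replicate 1, where 29.2% of all tested genes were called. There were 8 left without shControl replicate 2 (27.6% of all genes called) or shOpa1 replicate 2 (27.1%), and 9 without shOpa1 replicate 1 (28.5%). Without shOpa1 replicate 3 (39.1%) 12 were left, and without shControl replicate 3 (35.3%) 13.

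**Figure D1:**
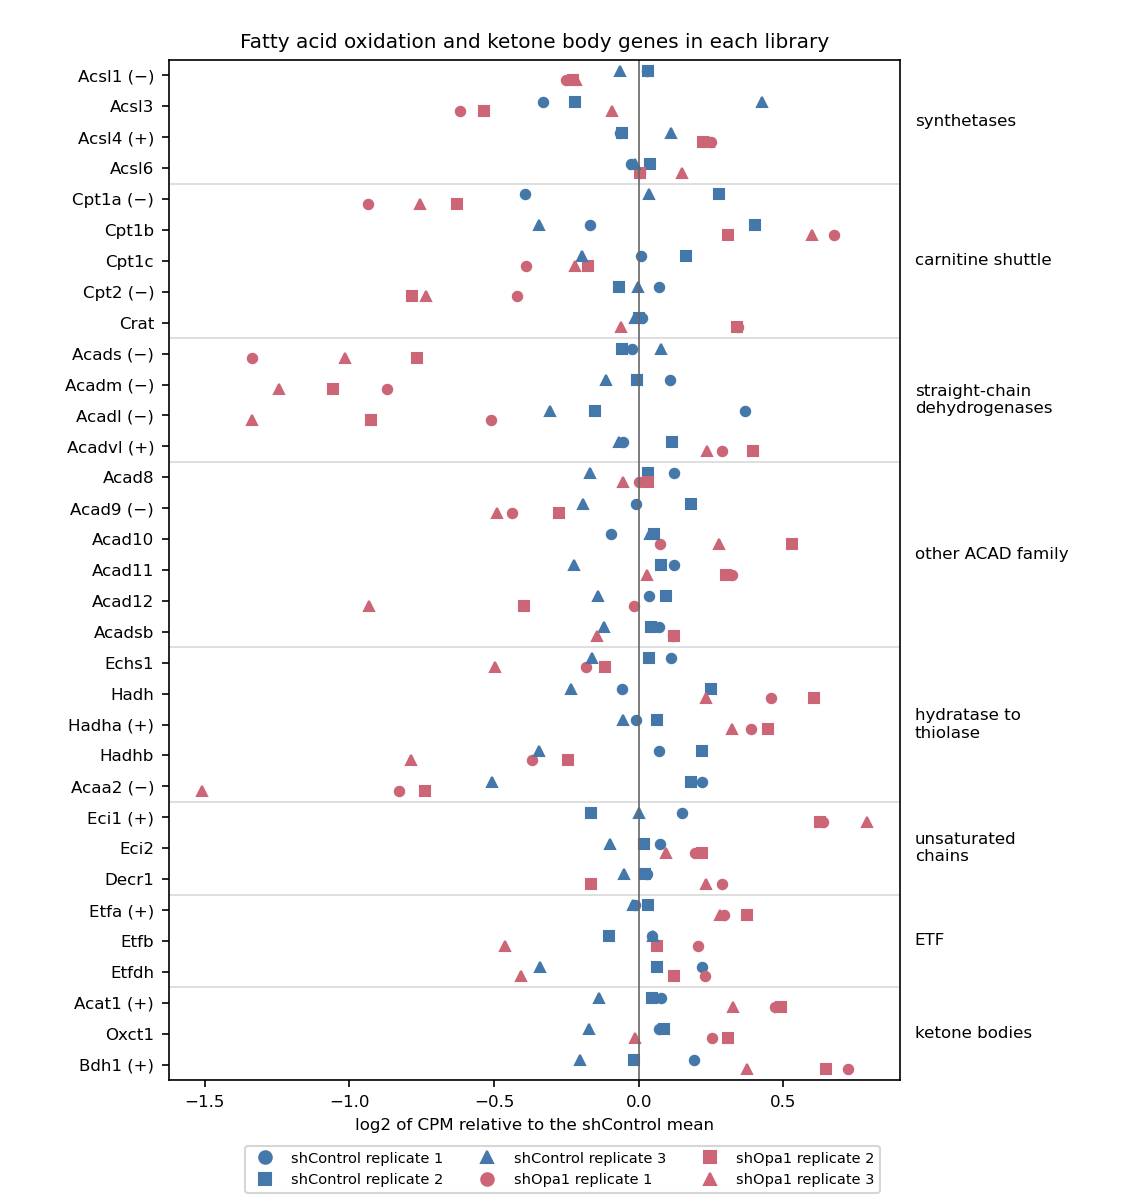
Level of each gene in each library as the log2 of CPM relative to the shControl mean, with genes grouped by role; blue is shControl, red is shOpa1, circles, squares and triangles are replicates 1, 2 and 3, and (+) or (−) marks a gene called higher or lower. Red points of Acads, Acadm and Acaa2 lie left of the blue points, while those of Hadha, Eci1, Acat1 and Bdh1 lie to the right.

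**Figure D2:**
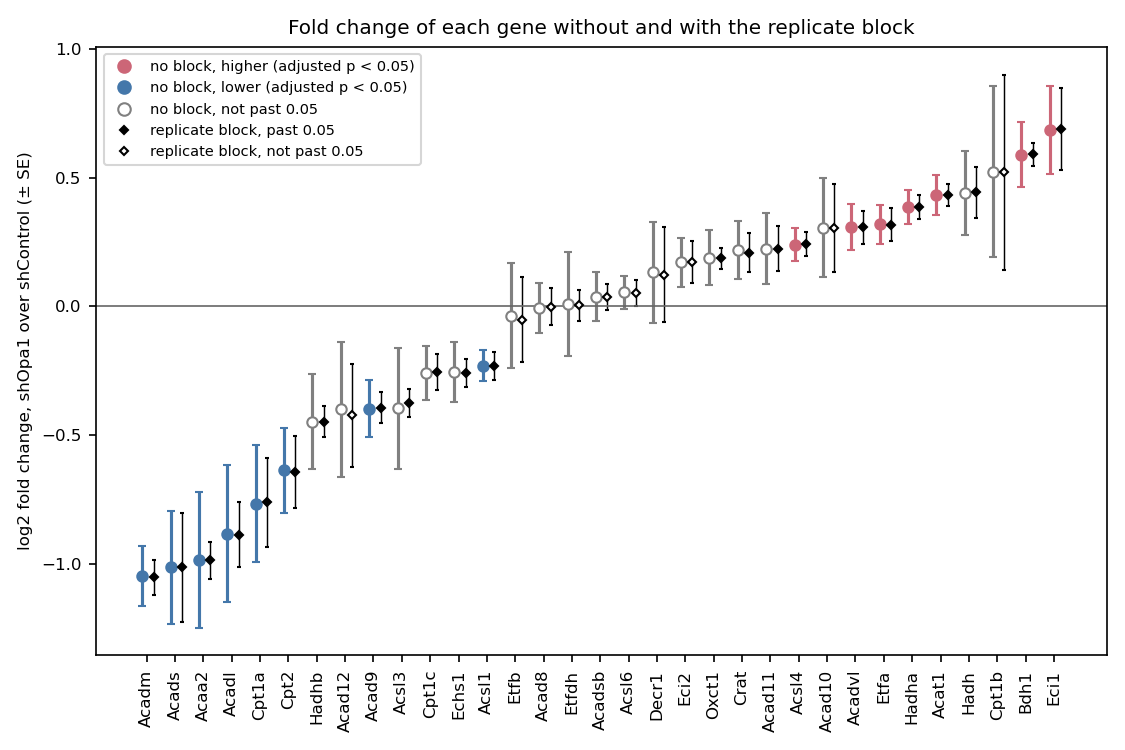
Log2 fold change of shOpa1 over shControl for each of the 33 genes with its standard error, without the replicate block (circles, filled where called) and with it (black diamonds, filled where called). Without the block the values run from -1.05 for Acadm to 0.69 for Eci1.

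Among the acyl-CoA synthetases, which activate fatty acids by joining them to coenzyme A, Acsl1 fell and Acsl4 rose, and neither Acsl3 nor Acsl6 passed the test. Acsl1, an enzyme of the outer mitochondrial membrane and endoplasmic reticulum, held 56.3, 56.5 and 52.8 CPM in shControl and 46.4, 47.1 and 47.5 CPM in shOpa1. The groups did not overlap, although the difference was small (log2 fold change -0.23 ± 0.0603, edgeR adjusted p = 0.0199). Acsl4, which prefers arachidonic acid, held 215, 216 and 243 CPM in shControl and 267, 262 and 266 CPM in shOpa1. All 3 knockdown libraries were higher than every control (log2 fold change 0.24 ± 0.0652, edgeR adjusted p = 0.0235). Acsl3, an enzyme of the endoplasmic reticulum and lipid droplets, gave 162, 175 and 274 CPM in shControl and 133, 141 and 191 CPM in shOpa1. It was lower in each same-numbered pair, but replicate 3 was high in both groups and the groups overlapped (log2 fold change -0.40 ± 0.235, edgeR adjusted p = 0.233). With the replicate block its adjusted p was 9.94e-05, and over 14 alternative settings it ran from 8.88e-07 to 0.594. Acsl6, the synthetase known in brain for handling docosahexaenoic acid, held 113, 119 and 115 CPM against 116, 116 and 128 CPM. Those groups overlapped, and the log2 fold change was 0.05 ± 0.0636. The calls of Acsl1 and Acsl4 were both lost when any of replicates 1 and 2 of either group was left out, at log2 fold changes of -0.23 to -0.22 and 0.21 to 0.25. Acsl1 was also not called without the low-count filter (-0.23).

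The carnitine shuttle held 2 genes that fell, Cpt1a and Cpt2, and none that rose. Cpt1a, the outer membrane carnitine palmitoyltransferase that sets the pace of beta-oxidation in liver, was scarce, with 46, 82 and 70 counts in shControl and 41, 56 and 49 in shOpa1. These counts correspond to 1.93, 3.06 and 2.59 CPM and to 1.32, 1.63 and 1.50 CPM. The groups did not overlap, and the lowest control lay close to the highest knockdown library (log2 fold change -0.77 ± 0.228, edgeR adjusted p = 0.0325). Leaving out any 1 library other than shControl replicate 1 ended the Cpt1a call, at log2 fold changes of -0.84 to -0.61. Cpt2, the inner membrane enzyme that hands the acyl group back to coenzyme A, held 4.48, 4.07 and 4.26 CPM in shControl and 3.19, 2.48 and 2.57 CPM in shOpa1. Every knockdown library was below every control, and the level was 1.56-fold lower (log2 fold change -0.64 ± 0.164, edgeR adjusted p = 0.019). That call was lost without shControl replicate 1 (-0.61) or shOpa1 replicate 2 (-0.57).

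Cpt1c, the neuronal isoform of the endoplasmic reticulum, which has little acyltransferase activity, was by far the most abundant of the 3 Cpt1 genes. It held 138, 154 and 119.6 CPM in shControl and 105, 121 and 118 CPM in shOpa1. It was lower in all 3 pairs with overlapping groups (log2 fold change -0.26 ± 0.104, edgeR adjusted p = 0.0865), and the block gave an adjusted p of 0.00987 within a range of 0.00494 to 0.246 over the 14 alternatives. Per length, as RPKM (CPM per kilobase of exon), Cpt1c made up 98.3 ± 0.311% (SD) of the Cpt1 total in shControl and 98.5 ± 0.0842% in shOpa1. That share did not differ beyond the spread between libraries (exact two-sided permutation test, p = 0.4, smallest possible 0.1). Cpt1b, the muscle isoform, had 6 to 10 counts in shControl and 12 to 14 in shOpa1, or 0.251, 0.373 and 0.222 CPM against 0.451, 0.350 and 0.428 CPM. Those groups overlapped (log2 fold change 0.52 ± 0.332), and 81.4% of its exon bases overlap the annotated gene Gm44502, so its value is uncertain. Crat, carnitine acetyltransferase, which buffers acetyl-CoA as acetylcarnitine, held 48.2, 47.9 and 47.4 CPM in shControl and 60.8, 60.6 and 45.8 CPM in shOpa1. Replicates 1 and 2 of the knockdown were high and replicate 3 was below every control (log2 fold change 0.22 ± 0.113, edgeR adjusted p = 0.165). Without shOpa1 replicate 3 it was called at a log2 fold change of 0.34, and the block gave an adjusted p of 0.039, within 0.000983 to 0.417 over the alternatives.

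The 4 straight-chain acyl-CoA dehydrogenases catalyse the first step of the spiral on chains of different length, and all 4 changed: 3 fell and the very-long-chain enzyme rose. Acadm, the medium-chain dehydrogenase, fell from 30.6, 28.3 and 26.3 CPM in shControl to 15.5, 13.6 and 12.0 CPM in shOpa1. The groups were well separated, with a 2.07-fold lower mean (log2 fold change -1.05 ± 0.116, edgeR adjusted p = 0.000612). Acads, the short-chain dehydrogenase, held 42, 46 and 51 counts in shControl and 22, 36 and 29 in shOpa1, equal to 1.76, 1.72 and 1.89 CPM and to 0.708, 1.05 and 0.886 CPM. No knockdown library reached a control despite the low counts (log2 fold change -1.01 ± 0.219, edgeR adjusted p = 0.00953). Acadl, the long-chain dehydrogenase, gave 7.87, 5.49 and 4.93 CPM in shControl and 4.28, 3.21 and 2.41 CPM in shOpa1. Its groups did not overlap, but controls 2 and 3 were near knockdown replicate 1 (log2 fold change -0.88 ± 0.265, edgeR adjusted p = 0.0338). The Acadl call was lost without shControl replicate 1 or 2 or shOpa1 replicate 2 or 3, at log2 fold changes of -0.96 to -0.66.

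Acadvl, the membrane-bound very-long-chain dehydrogenase, held 18.5, 20.8 and 18.3 CPM in shControl and 23.5, 25.3 and 22.6 CPM in shOpa1. All knockdown libraries were higher than all controls (log2 fold change 0.31 ± 0.0886, edgeR adjusted p = 0.029). Its call was lost without shControl replicate 1 or 3 or shOpa1 replicate 1 or 2 (0.27 to 0.31), and 42.9% of its exon bases overlap Dvl2, so its counts are less certain than those of Acadm. Per length, the ratio of Acadvl to Acadm RPKM was 0.882, 1.07 and 1.02 in shControl and 2.20, 2.70 and 2.75 in shOpa1. The ratios of the groups did not overlap, a comparison chosen after the values were seen (exact two-sided permutation test, p = 0.1, the smallest that 3 against 3 allows).

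**Figure D3:**
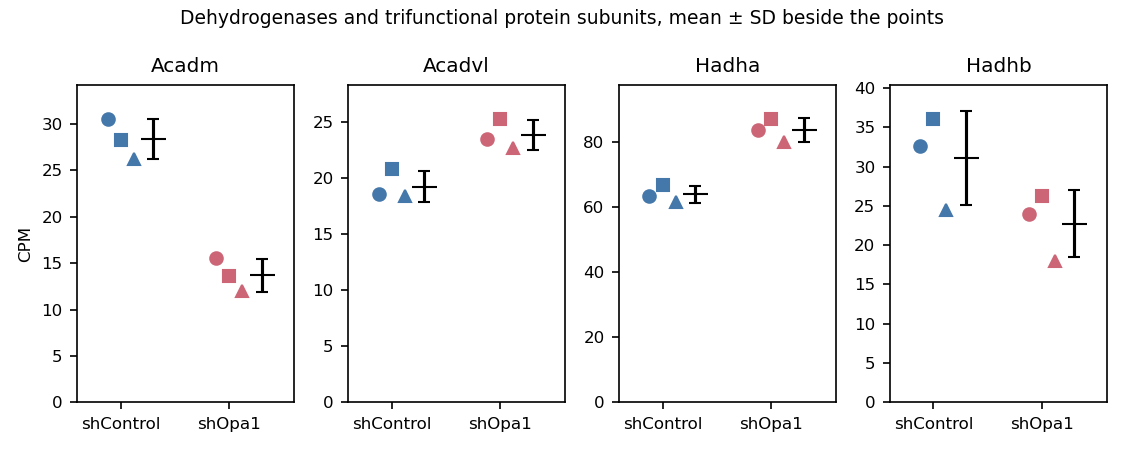
CPM of Acadm, Acadvl, Hadha and Hadhb in each library, with circles, squares and triangles for replicates 1, 2 and 3 and the mean ± SD (n = 3) beside each group. Acadm and Hadhb are lower and Acadvl and Hadha higher in shOpa1, and the Hadhb groups overlap.

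The promoters of Acadm and Acadvl are shown because these 2 dehydrogenases moved in opposite directions and both windows hold the letters AGGTCA, the half-site that nuclear receptors such as the PPARs bind. The windows cover 250 bases before to 50 bases after the RefSeq start (GRCm38.p6, minus strand, written 5′ to 3′), at chr3:153944594-153944893 for Acadm and chr11:70015379-70015678 for Acadvl. Capitals mark AGGTCA on either strand, which reads TGACCT where it lies on the other strand.
Acadm promoter: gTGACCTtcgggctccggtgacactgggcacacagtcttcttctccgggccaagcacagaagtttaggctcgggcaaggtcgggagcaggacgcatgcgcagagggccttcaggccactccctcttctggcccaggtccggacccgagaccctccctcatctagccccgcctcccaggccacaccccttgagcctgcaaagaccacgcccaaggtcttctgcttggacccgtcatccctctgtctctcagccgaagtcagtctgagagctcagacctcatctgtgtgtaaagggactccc
Acadvl promoter: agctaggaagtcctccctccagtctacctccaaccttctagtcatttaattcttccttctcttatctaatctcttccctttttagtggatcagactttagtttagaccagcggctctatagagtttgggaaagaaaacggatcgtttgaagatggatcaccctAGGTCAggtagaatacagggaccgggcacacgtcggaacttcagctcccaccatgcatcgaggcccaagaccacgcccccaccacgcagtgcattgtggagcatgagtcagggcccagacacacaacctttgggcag
RefSeq promoters matched 27 of the 33 genes, with 31 windows. Of these 31 windows, 6 held AGGTCA, 1 each of Acadm, Acadvl, Acsl6, Cpt1a, Cpt1c and Echs1, and 16.3% of 32851 mouse promoter windows hold it. Of the 6, Acadm and Cpt1a fell, Acadvl rose, and Acsl6, Cpt1c and Echs1 did not pass the test without the block. TGATGNAA, the core shared by C/EBP and ATF composite sites, was in the Echs1 window alone and in 3.97% of all windows. The E-box CACGTG was in none of the 31 windows and in 7.15% of all. CCAAT occurred in 13 of the 31 windows and in 37.4% of all windows, each searched on both strands.

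Of the other 6 members of the acyl-CoA dehydrogenase family, Acad9 alone changed. Acad9, which oxidizes long chains and is also an assembly factor of respiratory complex I, held 36.3, 41.4 and 31.9 CPM in shControl and 26.9, 30.2 and 26.0 CPM in shOpa1. Every knockdown library was lower than every control (log2 fold change -0.40 ± 0.111, edgeR adjusted p = 0.026). The Acad9 call was lost without shControl replicate 1 or 2 or shOpa1 replicate 1 or 3 (-0.41 to -0.30). Acadsb, which acts on the isoleucine breakdown product, held 64.4, 63.0 and 56.3 CPM against 66.5, 66.6 and 55.5 CPM. Acad8, the isobutyryl-CoA dehydrogenase of valine breakdown, held 21.0, 19.8 and 17.2 CPM against 19.3, 19.8 and 18.6 CPM. Both pairs of groups overlapped, with log2 fold changes of 0.04 ± 0.0947 and -0.01 ± 0.0971. Acad11, which acts on long chains and 4-hydroxy acids, gave 9.97, 9.67 and 7.85 CPM in shControl and 11.46, 11.3 and 9.34 CPM in shOpa1. It was higher in all 3 pairs with overlapping groups (log2 fold change 0.22 ± 0.139, edgeR adjusted p = 0.243). The block gave Acad11 an adjusted p of 0.0465, within 0.0465 to 0.509 over the alternatives. Acad10 held 1.72, 1.90 and 1.89 CPM against 1.93, 2.65 and 2.23 CPM, and Acad12 1.97, 2.05 and 1.74 CPM against 1.90, 1.46 and 1.01 CPM. Neither passed the test, at log2 fold changes of 0.31 ± 0.194 and -0.40 ± 0.262, although the Acad10 groups did not overlap.

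In the hydration, dehydrogenation and thiolysis steps Hadha rose and Acaa2 fell, and Hadha and Hadhb, the alpha and beta subunits of the mitochondrial trifunctional protein, differed in opposite directions, of which that of Hadha alone passed the test without the block. Hadha, which carries the hydratase and dehydrogenase activities for long chains, held 63.5, 66.8 and 61.5 CPM in shControl and 83.6, 87.1 and 79.9 CPM in shOpa1. The groups were clearly separated (log2 fold change 0.39 ± 0.0646, edgeR adjusted p = 0.00327). Hadhb, the thiolase subunit, gave 32.6, 36.1 and 24.4 CPM in shControl and 24.0, 26.2 and 18.0 CPM in shOpa1. It was lower in each of the 3 pairs, but replicate 3 was low in both groups and the lowest control lay below the highest knockdown library (log2 fold change -0.45 ± 0.185, edgeR adjusted p = 0.0959). With the block its adjusted p was 6.71e-05, within 3.01e-05 to 0.268 over the alternatives, and without shControl replicate 3 it was called at -0.60. The Hadha to Hadhb ratio of RPKM was 1.47, 1.40 and 1.90 in shControl and 2.63, 2.51 and 3.35 in shOpa1. No ratio of the knockdown group fell within the control range, again a comparison chosen after the values were seen (exact two-sided permutation test, p = 0.1, the smallest possible). Like the ratio of Acadvl to Acadm, it pairs genes already seen to differ in opposite directions, so it is no separate support for their changes.

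Hadha and Hadhb lie head to head on chromosome 5, and their RefSeq starts are 273 bases apart, at 30154980 on the minus strand for Hadha and 30155253 on the plus strand for Hadhb (GRCm38.p6). Their 300-base promoter windows share 228 bases, so the Hadhb window is shown as it covers most of the stretch between both starts. It ends short of the Hadha start and lies at chr5:30155003-30155302 on the plus strand. Capitals mark the GC box GGGCGG on either strand, CCGCCC where it lies on the other.
Hadhb promoter: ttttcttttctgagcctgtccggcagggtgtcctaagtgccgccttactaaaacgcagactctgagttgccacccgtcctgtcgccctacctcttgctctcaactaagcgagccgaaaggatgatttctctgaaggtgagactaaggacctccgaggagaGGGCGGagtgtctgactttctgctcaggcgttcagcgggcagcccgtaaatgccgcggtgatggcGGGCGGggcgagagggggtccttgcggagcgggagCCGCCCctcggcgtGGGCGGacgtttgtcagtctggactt
The window held 4 GC boxes, 1 of them inside the Hadha window. GGGCGG was found in 23 of the 31 windows of these enzymes and in 35.7% of all windows.

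Acaa2, the mitochondrial thiolase for medium-length chains, had 27.3, 26.6 and 16.5 CPM in shControl and 13.2, 14.1 and 8.24 CPM in shOpa1. Its levels were 1.98-fold lower, and the lowest control, replicate 3, was above the highest knockdown library (log2 fold change -0.99 ± 0.263, edgeR adjusted p = 0.0242). The Acaa2 call was lost without shControl replicate 1 (-0.87), shControl replicate 2 (-0.89) or shOpa1 replicate 1 (-1.08), and without the low-count filter (-0.98). Echs1, the hydratase for shorter chains, held 72.1, 68.3 and 59.5 CPM against 58.7, 61.5 and 47.3 CPM. It was lower in each pair with overlapping groups (log2 fold change -0.25 ± 0.118, edgeR adjusted p = 0.128), and the block gave 0.0018, within 0.0018 to 0.312 over the alternatives. Hadh, the dehydrogenase for short and medium hydroxyacyl chains, had 6.66, 8.25 and 5.89 CPM in shControl and 9.53, 10.6 and 8.15 CPM in shOpa1. It was higher in each pair, with only shControl replicate 2 and shOpa1 replicate 3 overlapping (log2 fold change 0.44 ± 0.165, edgeR adjusted p = 0.0701). For Hadh the block gave an adjusted p of 0.00251, within 0.00251 to 0.213. Without shControl replicate 2 or shOpa1 replicate 3 it was called, at 0.58 and 0.53.

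Of the enzymes that prepare unsaturated chains for the spiral, Eci1 rose. Eci1, an enoyl-CoA isomerase that shifts double bonds, held 51, 46 and 52 counts in shControl and 93, 102 and 109 in shOpa1, or 2.14, 1.72 and 1.93 CPM and 2.99, 2.98 and 3.33 CPM. All knockdown libraries were higher, by 1.61-fold (log2 fold change 0.69 ± 0.171, edgeR adjusted p = 0.0168), and the call was lost without shControl replicate 2 (0.61). Eci2, a second isomerase found in mitochondria and peroxisomes, held 12.0, 11.54 and 10.6 CPM against 13.0, 13.2 and 12.2 CPM. Its groups did not overlap, yet the difference did not pass the test (log2 fold change 0.17 ± 0.0964, edgeR adjusted p = 0.202). Decr1, the dienoyl-CoA reductase, held 1.80, 1.79 and 1.70 CPM against 2.16, 1.58 and 2.08 CPM, with overlapping groups and a log2 fold change of 0.13 ± 0.198.

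The electron transfer flavoprotein takes electrons from the acyl-CoA dehydrogenases. Etfa, its alpha subunit, held 17.3, 17.8 and 17.2 CPM in shControl and 21.4, 22.6 and 21.2 CPM in shOpa1. The rise was small and well outside the spread of either group (log2 fold change 0.32 ± 0.0754, edgeR adjusted p = 0.0137), and it was lost as a call without shControl replicate 1 (0.31) or shOpa1 replicate 2 (0.29). Etfb, the beta subunit, gave 3.52, 3.17 and 3.52 CPM against 3.93, 3.56 and 2.47 CPM. These overlapped (log2 fold change -0.04 ± 0.205), and 58.2% of the Etfb exon bases overlap Gm45233 and Mir7051, which makes its value uncertain. Etfdh, the oxidoreductase that passes the electrons on to ubiquinone, held 34.8, 31.2 and 23.6 CPM against 35.1, 32.5 and 22.5 CPM. Its replicates varied alike in both groups, and the difference did not pass the test (log2 fold change 0.01 ± 0.201, edgeR adjusted p = 0.976). The Etfa to Etfdh ratio of RPKM was 2.03, 2.34 and 2.99 in shControl and 2.50, 2.85 and 3.85 in shOpa1. These ratios overlapped (exact two-sided permutation test, p = 0.3).

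The ketone body enzymes held the 3 highest mean levels per length, and 2 of the 3, Acat1 and Bdh1, rose. Bdh1, which oxidizes beta-hydroxybutyrate to acetoacetate, held 217, 187 and 165 CPM in shControl and 313, 297 and 246 CPM in shOpa1. All knockdown libraries were above all controls, by 1.50-fold on average (log2 fold change 0.59 ± 0.126, edgeR adjusted p = 0.00938). Acat1, the mitochondrial acetoacetyl-CoA thiolase, which closes ketone body use and also serves isoleucine breakdown, held 219, 215 and 189 CPM in shControl and 288, 292 and 261 CPM in shOpa1. The groups did not overlap (log2 fold change 0.43 ± 0.0790, edgeR adjusted p = 0.00472). Oxct1, the CoA transferase that commits acetoacetate to oxidation, held 798, 807 and 675 CPM in shControl and 906, 941 and 753 CPM in shOpa1. It was higher in each pair, with replicate 3 low in both groups, so that shOpa1 replicate 3 lay within the control range (log2 fold change 0.19 ± 0.107, edgeR adjusted p = 0.204). For Oxct1 the block gave an adjusted p of 0.00192, within 0.000251 to 0.476 over the alternatives, and without shOpa1 replicate 3 it was called at 0.28. The calls of Acat1 and Bdh1, like those of Acadm, Acads and Hadha, were kept under all 14 alternatives.

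Levels between genes were compared per length, in RPKM over the exon length of the deposited table. Oxct1 led in shControl with 205 ± 19.9 RPKM (SD, n = 3), or 37.7% of the summed RPKM of the 33 genes, and stood clear of the next gene in every library. Acat1 (55.3 ± 4.34 RPKM), Bdh1 (48.8 ± 6.72), Acsl3 (46.8 ± 14.1) and Acsl4 (41.5 ± 2.95) followed, and neighbours in that order overlapped. Cpt1c came next with 24.5 ± 3.05 RPKM. Beta-oxidation enzymes were far lower: Acaa2 had 15.5 ± 3.98 RPKM, Hadha 7.32 ± 0.304 and Acadm 7.25 ± 0.551. The lowest were Cpt1a at 0.331 ± 0.0746 RPKM, Acad10 at 0.303 ± 0.0171, Acad12 at 0.295 ± 0.0248 and Cpt1b at 0.0837 ± 0.0238. After the knockdown Acaa2 moved from rank 7 to 13 and Acadm from rank 14 to 18, while Oxct1, Acat1 and Bdh1 kept the first 3 ranks by mean. In shControl replicate 3 Acsl3 (63.0 RPKM) lay above Acat1 and Bdh1. The order per length rests on the annotated exon length, 8730 bases for Hadha and 1516 for Acaa2. In mean shControl CPM Hadha (63.9) was above Acaa2 (23.5). Oxct1, Acat1 and Bdh1 (760, 208 and 190 CPM) were above both.

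**Figure D4:**
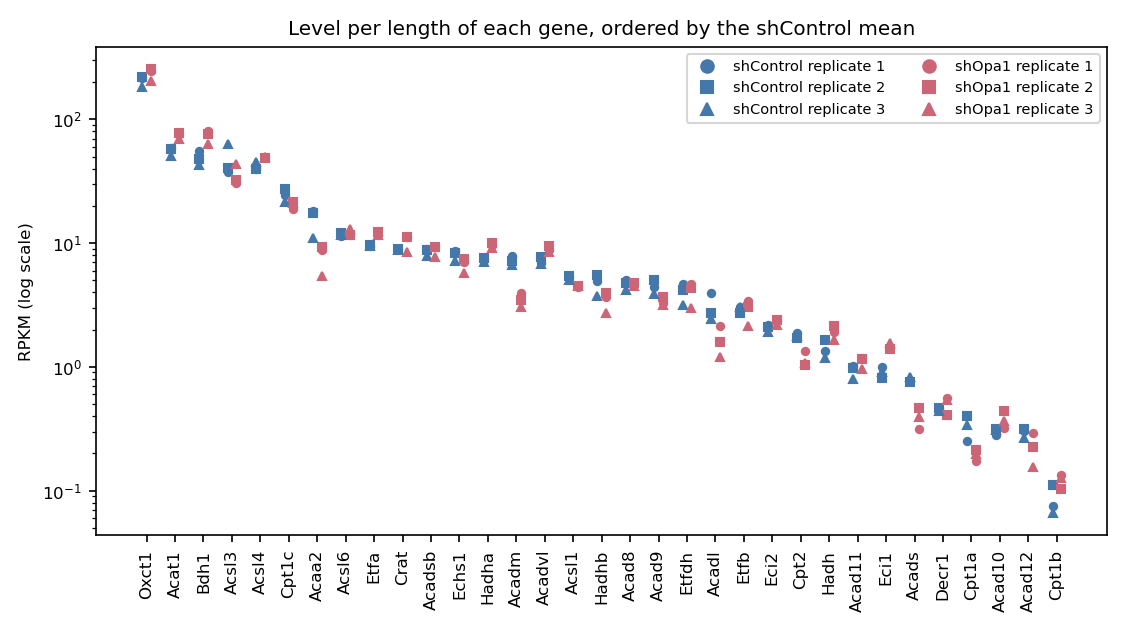
RPKM of the 33 genes in each library on a log axis, ordered by the shControl mean; blue is shControl, red is shOpa1, and circles, squares and triangles are replicates 1, 2 and 3. Oxct1 lies above 180 RPKM in all 6 libraries and Cpt1b below 0.2.

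Within the Acsl family, Acsl4 made up 41.1, 39.8 and 35.5% of the summed RPKM of Acsl1, Acsl3, Acsl4, Acsl5 and Acsl6 in shControl and 50.6, 49.2 and 44.0% in shOpa1. Those shares did not overlap (exact two-sided permutation test, p = 0.1, the smallest possible). The Acsl4 share was not a planned comparison and is built from levels already given above, so it is no separate support for the rise of Acsl4. Acsl3 held 38.6, 40.1 and 49.7% against 31.2, 32.8 and 39.3%, which overlapped. The share of Acsl6 was 11.9, 11.9 and 9.13% in shControl and 12.0, 11.8 and 11.6% in shOpa1, a difference within the spread between libraries (exact two-sided permutation test, p = 0.7).

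Of 119 further genes of the same and adjoining pathways, 107 were tested, 20 rose and 24 fell (41.1%, beside the 38.9% of all genes). With the replicate block, which called 59.5% of all tested genes, 35 rose and 35 fell. In carnitine and acyl-CoA handling 1 of 13 rose and 4 fell, among them Acsl5 (log2 fold change -0.81) and Slc25a20 (-0.27), the carrier that works between the palmitoyltransferases; Acot2 rose (1.26), but shares much of its sequence with Acot1 and is uncertain. In malonyl-CoA control, where malonyl-CoA restrains the outer palmitoyltransferase, 2 of 9 rose, Prkab1 (0.61) and Mlycd (0.38), and Prkag2 fell (-0.36). In peroxisomal beta-oxidation 3 of 14 tested rose and 3 fell. Scp2 fell (-0.58). Acaa1b rose (0.86), as did Ehhadh, from 0.426 ± 0.224 to 1.30 ± 0.176 CPM (SD, n = 3).

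Among genes of ketone body synthesis, transport and use, 4 of 9 tested rose and 1 fell. The neuronal monocarboxylate carrier Slc16a7 fell from 57.7, 51.0 and 47.5 CPM to 22.9, 22.3 and 20.5 CPM (log2 fold change -1.25 ± 0.0927, edgeR adjusted p = 0.00012). The related carriers Slc16a1 (0.69), Slc16a3 (1.82) and Slc16a6 (0.53) rose. In branched-chain and lysine breakdown 4 of 22 rose and 7 fell, the latter including Aldh6a1 (-1.25), Dbt (-0.79) and Gcdh (-0.61), and Bcat1 rose (0.53). Of 14 tested PPAR and PGC-1 regulators 3 rose, Pparg (1.63), Klf15 (1.05) and Ppargc1b (0.85), and 3 fell, including Nrip1 (-0.55), while Ppara was below the filter. Of PPAR target genes outside the 33, 2 of 11 rose, Acot2 and Ehhadh, and 2 fell, including Slc25a20, and Pdk4 was below the filter. In fatty acid storage and binding Dgat2 rose (0.60) and 3 of 14 fell, Mgll (-1.10), Pnpla2 (-0.53) and Fabp5 (-0.51). Of 8 flavin and redox partners of the electron transfer flavoprotein, Slc25a32 (0.37) and Coq10a (0.36) rose and Rfk (-0.40) and Etfbkmt (-1.25) fell. The block, which called 59.5% of all tested genes, raised the calls in these lists too. With it 2 were higher and 6 lower in carnitine and acyl-CoA handling, and 4 and 1 in malonyl-CoA control. Peroxisomal beta-oxidation had 6 and 5, and branched-chain and lysine breakdown 8 and 7. The block gave 5 and 5 among the regulators, 4 and 4 among the PPAR targets and 3 and 5 in storage and binding.

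**Figure D5:**
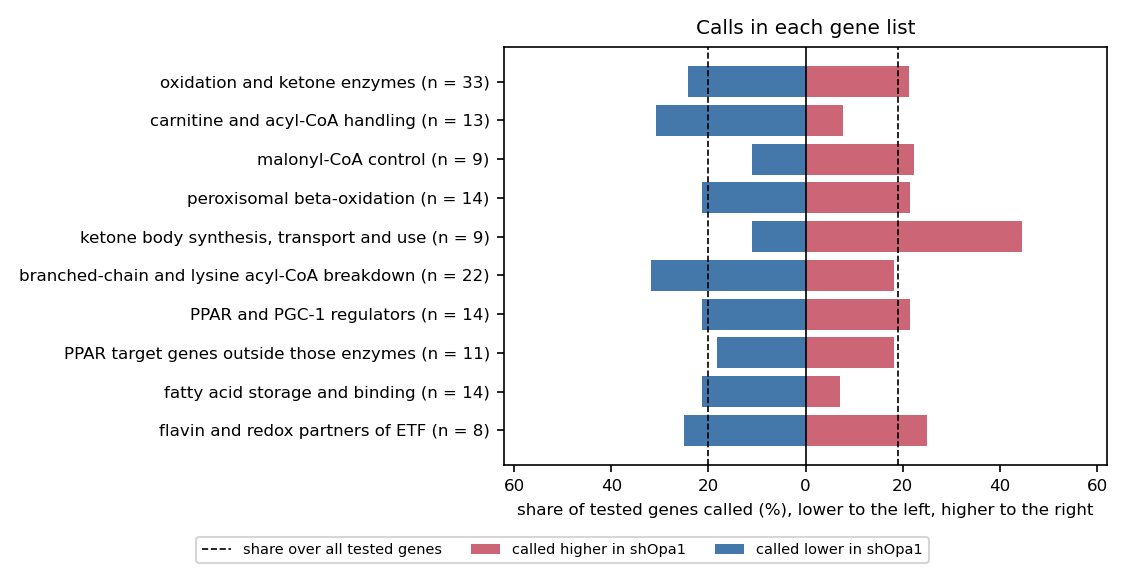
Share of tested genes of each list called higher (right, red) or lower (left, blue) in shOpa1, in percent, with the number tested in parentheses; dashed lines mark the 18.9% higher and 20.0% lower over all tested genes. The bars of the oxidation and ketone body enzymes lie close to both dashed lines.

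Markers of other cells moved with the groups, and their part in the results above was not tested. The summed level of 12 astrocyte markers was 342 to 547 CPM in shControl and 180 to 266 CPM in shOpa1, with 4 markers lower (9 with the block) and 1, Gfap, higher. Gfap, Aqp4 and S100b were scarce, at 0.754 to 2.70 CPM in shControl. The 9 oligodendrocyte lineage markers summed to 47.2 to 75.7 CPM in shControl and 38.5 to 55.2 CPM in shOpa1, with 2 of 7 tested lower and Sox10 at 0 in every control. The 8 microglia markers summed to 5.64 to 8.17 CPM against 3.36 to 4.76 CPM, and only Aif1 passed the filter. Fibroblast, mural and endothelial markers summed to 11.7 to 24.6 CPM in shControl and 8.17 to 54.3 CPM in shOpa1, the highest in shOpa1 replicate 1. Of these, 0 of 7 tested were called by edgeR, with or without the block, or by DESeq2. In the edgeR fit without the block 0 had an unadjusted p under 0.05. The 6 markers of dividing progenitors summed to 38.8 to 63.3 CPM against 21.6 to 33.8 CPM, with 2 of 5 tested lower. Within each group Acsl3 was highest in replicate 3. Acaa2, Oxct1, Bdh1, Acat1 and Hadhb were lowest there, as were many more of the enzymes, among them Acadm, Hadha, Echs1, Etfa and Etfdh. A low level in replicate 3 is thus not particular to single enzymes. The astrocyte, neuronal, oligodendrocyte lineage and progenitor sums were all highest in that replicate. A link between these genes and any of those cells was not tested.

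The authors' deposited table, which carries their own log2 fold changes, had 22 of the 33 genes past 0.05 after adjustment (10 higher, 12 lower), beside 40.9% of the 19398 genes to which that table gives an adjusted p, and all 15 called here were among them. Its fold changes equal, within 1e-05, those of a DESeq2 fit of the same counts with replicate 3 as a second batch. That fit is among the 14 alternatives, so the deposited table is not a separate check.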

How the data were processed

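RNA of 6 libraries, 3 per group, was sequenced from a stranded mRNA kit, per the labels' protocols. The deposited counts are raw read pairs per gene. Per the file headers, the authors ran featureCounts 1.6.0 with the GRCm38 annotation of Ensembl release 99. That command names no strand option and none for reads that overlap several genes, so such reads cannot be assigned with certainty. HISAT2, DESeq2 and mm10 are named, with no version, in the submitters' processing notes. The authors' deposited comparison table gives log2 fold changes with errors, p-values, a score that divides fold change by error, and counts divided by a size factor per library, a normalised signal. A DESeq2 fit with replicate 3 as a second batch, chosen after seeing the data, gave log2 fold changes more than 1e-05 away from that table for 0 genes.

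Groups came from the sample titles. Genes left by edgeR's default filter on low counts were tested with its quasi-likelihood test (edgeR 4.0.16 in R 4.3.3, TMM scaling, robust dispersions), with Benjamini-Hochberg adjustment over all tested genes at 0.05 and group as the only term. CPM uses TMM-scaled library sizes, and RPKM divides it by the deposited exon length. Same-numbered libraries of both groups deviated together from their group means (r = 0.499, 0.515 and 0.649), more than with any other number. This was taken to mean that numbers pair the libraries. The labels state no block, so the block was kept as an alternative and its results are given beside the main fit. Alternatives were the replicate block, replicate 3 as a batch, DESeq2 1.42.0, its size factors, limma-voom 3.58.1, no filter, pairs 1 and 2 only and each library left out. The last of the 14 was the DESeq2 fit with replicate 3 as a second batch, which was not planned. It gave the lowest adjusted p over the alternatives for Acsl3, Hadhb and Oxct1, whose ranges are given above. The same held for Acadm, Acaa2, Bdh1, Acat1, Hadha and Acsl4. The fits were tested on simulated data. Libraries of a group differed by more than sampling noise (chi-square per degree of freedom 6.11 to 30.8). The labels say biological replicates without naming cultures, and p-values cover only the spread among libraries.

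The 33 genes and all lists were chosen with earlier results of these data known. Named genes were Opa1, the 33, and up to 4 called genes of each other pathway list with the smallest p. Ratios between members, promoters, Ppara, Pdk4 and single markers were chosen after values were seen. The shares of Acsl3 and Acsl4 were not planned. Promoter sequences are from RefSeq (GRCm38.p6). Some genes that this rule selects are not reported here. Columns of values without a sample and rows without a gene identifier numbered 0.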

Additional observations from a re-analysis of the deposited data

How the results depend on the processing

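With the replicate block the counts over all genes were 4770 higher and 5081 lower. The members called higher then numbered 11, as they did with replicate 3 as a second batch. Other pathway genes called higher numbered 35 with the block, with replicate 3 as a second batch and with pairs 1 and 2 only. The block turned no direction of a call and ended none among the 33 genes. Leaving out each library in turn gave 4 to 10 of the 33 higher and 3 to 9 lower, and 13 (without shOpa1 replicate 1) to 27 (without shOpa1 replicate 3) other pathway genes higher. The median log2 fold change of the 33 then ran from -0.01 to 0.12 (-0.0114 to 0.1186), so its sign rests on single libraries. Without shControl replicate 3 the Acsl6 share difference turned to -0.0917 percentage points, and the others gave 0.744 to 1.31. In these fits fewer samples enter. Across 14 alternatives 0 called genes changed sign. Acad8, Acadsb, Etfb and Etfdh, which were not called, took either sign.

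Standard errors were widest for Cpt1b, with at most 14 counts in a library, and those of the more abundant Acadl, Acaa2 and Acsl3 were also wide (0.265, 0.263 and 0.235 on the log2 scale). Overlapping genes limit Acadvl, Cpt1b and Etfb. RPKM depends on the annotated exon length. In bulk RNA the levels say nothing of enzyme activity.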
